A study of Mus musculus with 12 samples.

Results

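The Src family kinases Lyn, Fgr, Src, Fyn, Lck, Blk and Yes1, with Csk, the kinase that holds them in check, are 8 of the 37991 genes in the count table. They were chosen by symbol. All 8 passed the filter on low counts that left 18981 genes for testing, although Blk passed it only through the WT-labelled libraries. The cells were mouse bone marrow-derived dendritic cells (BMDCs) of the C57BL/6 strain, and RNA-seq reads were counted per gene. The 4 groups of 3 libraries were cells labelled Vav1/2/3-/- (KO) after 3 hours of curdlan, cells labelled wild type (WT) after 3 hours of curdlan, untreated KO cells and untreated WT cells. Curdlan is a particulate beta-glucan that binds the receptor Dectin-1. Vav1, Vav2 and Vav3 are exchange factors for small GTPases that are phosphorylated below such receptors.

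Library totals ranged from 41421718 to 61217861 counts. Each group was run on a lane of its own, so that lane and group cannot be told apart. The deleted genes did not mark the groups as labelled. Vav1 ran from 246 to 330 CPM (counts scaled to library size) in KO-labelled and from 177 to 179 CPM in WT-labelled libraries with curdlan, and from 198 to 232 CPM in KO-labelled and from 131 to 135 CPM in WT-labelled libraries without it. Vav2 ran from 265 to 325 CPM in KO-labelled and from 66 to 72.7 CPM in WT-labelled libraries with curdlan, and from 276 to 287 CPM in KO-labelled and from 65 to 70.8 CPM in WT-labelled libraries without it. Vav3 ran from 22.7 to 32.5 CPM in KO-labelled and from 28.3 to 36.9 CPM in WT-labelled libraries with curdlan, and from 31.5 to 40 CPM in KO-labelled and from 21.6 to 28.9 CPM in WT-labelled libraries without it. Gene totals do not show whether the deleted part of a gene was read, so every direction below is a direction between labels. All 15 dendritic cell markers were detected in every group. Their summed level ran from 20000 to 25900 CPM in KO-labelled and from 11200 to 11600 CPM in WT-labelled libraries with curdlan, and from 18200 to 23000 CPM in KO-labelled and from 10800 to 11000 CPM in WT-labelled libraries without it. Between labels 7 of the 15 were higher and 5 lower with curdlan, and 8 higher and 4 lower without it. The MHC class II genes H2-Aa, H2-Ab1 and H2-Eb1, with Cd74, Ciita and Cd86, were among the higher ones, and Itgax, which encodes CD11c, Ccr7 and Clec9a among the lower ones, in both states. Clec9a was near the floor in KO-labelled cells, with 42 counts in the curdlan libraries and 26 in the unstimulated ones, so its call is no support. Of the macrophage markers, 10 of 12 tested were higher in KO-labelled than in WT-labelled unstimulated libraries, as were 8 of 9 mast cell and basophil markers and 10 of 12 neutrophil markers. The mast cell gene Cma1, at 130 counts in KO-labelled and 6 in WT-labelled unstimulated libraries, passed the filter on low counts only through the KO-labelled libraries. It lends its count no support. Of all genes tested 21.1% were higher and 23.3% lower without curdlan, and 24.7% higher and 26.8% lower with it. The part of the cell makeup in the results was not tested, and in bulk RNA fewer cells of a type and less RNA per cell cannot be told apart.

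Src family kinases are membrane-anchored tyrosine kinases that share a catalytic domain and SH3 and SH2 domains. Below Dectin-1, Fc receptors and integrins they phosphorylate receptor or adapter tyrosines in activating motifs (ITAMs), to which Syk then binds, and several of them, Lyn above all, also phosphorylate inhibitory motifs (ITIMs) that recruit phosphatases. Csk phosphorylates a tyrosine in the tail of each family member, which folds the kinase into a closed, inactive form, and phosphatases such as CD45 remove that phosphate. Kinase activity and phosphorylation were not measured here, and the values are transcript levels.

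The sequences upstream of the start sites are shown for Src, Yes1, Fyn and Lck. A rise with curdlan was called for Src in WT-labelled cells, for Yes1 under both labels, and for Fyn and Lck in KO-labelled cells. The call of Fyn was lost under many alternatives, and of these genes only Src passed the test of a difference between labels. Both start sites of Lck are given, because the gene counts join them. RefSeq windows (GRCm38.p6) were matched for 6 of the 8 genes, all but Lyn and Blk. Each line gives the 250 bases before the start site, 5′ to 3′ on the strand of the gene, with capitals for matches on either strand to GAGGAA, the core bound by PU.1, or to GGGCGG, the GC box.
Src, chr2:157424043-157424292, plus strand: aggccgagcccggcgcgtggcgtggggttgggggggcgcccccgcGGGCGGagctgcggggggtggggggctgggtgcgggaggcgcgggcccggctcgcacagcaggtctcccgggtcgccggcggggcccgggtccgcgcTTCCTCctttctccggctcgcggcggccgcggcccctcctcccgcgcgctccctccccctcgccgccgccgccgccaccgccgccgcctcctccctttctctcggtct
Yes1, chr5:32610921-32611170, plus strand: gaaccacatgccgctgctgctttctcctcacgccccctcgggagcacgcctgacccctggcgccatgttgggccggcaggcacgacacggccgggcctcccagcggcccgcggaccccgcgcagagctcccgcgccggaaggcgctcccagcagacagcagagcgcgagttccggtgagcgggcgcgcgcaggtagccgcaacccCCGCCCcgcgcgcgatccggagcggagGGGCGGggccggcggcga
Fyn, chr10:39369549-39369798, plus strand: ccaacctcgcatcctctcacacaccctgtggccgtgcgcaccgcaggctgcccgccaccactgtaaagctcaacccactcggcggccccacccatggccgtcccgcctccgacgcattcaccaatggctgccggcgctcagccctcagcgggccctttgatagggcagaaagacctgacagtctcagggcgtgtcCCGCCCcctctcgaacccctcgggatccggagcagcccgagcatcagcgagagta
Lck, upstream start, chr4:129573642-129573891, minus strand: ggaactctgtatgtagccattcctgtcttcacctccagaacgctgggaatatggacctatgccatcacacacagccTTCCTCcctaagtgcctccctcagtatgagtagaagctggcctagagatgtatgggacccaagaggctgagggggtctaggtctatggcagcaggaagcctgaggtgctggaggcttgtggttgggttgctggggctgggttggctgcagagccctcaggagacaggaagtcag
Lck, downstream start, chr4:129558373-129558622, minus strand: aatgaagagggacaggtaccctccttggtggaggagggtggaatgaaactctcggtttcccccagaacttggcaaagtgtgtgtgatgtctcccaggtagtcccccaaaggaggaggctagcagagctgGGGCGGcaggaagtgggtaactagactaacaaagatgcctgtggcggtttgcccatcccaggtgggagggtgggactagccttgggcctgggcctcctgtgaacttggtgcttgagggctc
G and C made up 82.8% of the Src bases, 77.2% of Yes1, 67.2% of Fyn, 56.4% of the upstream Lck window and 58% of the downstream one. Motifs were searched on both strands in windows that add the 50 bases after the start. GAGGAA was present at Fgr, at Src, at the upstream start of Lck and at both starts of Csk, and 28.3% of the 32851 mouse windows of that length hold it. GGGCGG was present at Src, Fyn, Yes1, the downstream start of Lck and the downstream start of Csk, against 35.7% of all windows. No window of these genes held the AP-1 letters TGANTCA (7.81% of all windows), the kappaB motif of NF-kB (0.411%) or the CRE letters TGACGTCA (1.79%). A match is a run of letters and does not show binding.

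Lyn, which phosphorylates both ITAMs and ITIMs in myeloid cells, was higher in every KO-labelled library. It read 312, 291 and 300 CPM in KO-labelled cells with curdlan, against 147, 146 and 168 CPM in WT-labelled cells with curdlan. In unstimulated cells Lyn read 254, 270 and 267 CPM in KO-labelled cells, against 139, 138 and 145 CPM in WT-labelled cells. The groups were apart in both states. The log2 fold change was 0.97 with curdlan (SE 0.07, adjusted p = 6.63e-07) and 0.91 without it (SE 0.07, adjusted p = 9.38e-07; edgeR's quasi-likelihood test, Benjamini-Hochberg over all genes, as for every adjusted p of edgeR below).

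Src, the founding member, which acts at integrin contacts and in the podosomes of myeloid cells, showed the largest rise among the members in the KO-labelled unstimulated libraries. With curdlan it read 146, 164 and 163 CPM in KO-labelled cells, against 80.2, 71.9 and 69.7 CPM in WT-labelled cells. Without curdlan it read 161, 133 and 157 CPM in KO-labelled cells, against 48.5, 43.1 and 41.2 CPM in WT-labelled cells. KO-labelled ranges overlapped between the states, while WT-labelled libraries were higher with curdlan than without. Src was 2.13-fold higher in KO-labelled cells with curdlan (log2 fold change 1.09, SE 0.09, adjusted p = 2.44e-06) and 3.4-fold higher without it (1.77, SE 0.1, adjusted p = 6.36e-08).

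Fyn, a widely expressed member that also serves T cell and adhesion receptors, was higher in KO-labelled libraries but uneven among them. With curdlan it read 113, 89.2 and 77.5 CPM in KO-labelled cells, against 41.5, 41.5 and 46.7 CPM in WT-labelled cells. In unstimulated cells Fyn read 61.8, 79.8 and 37.2 CPM in KO-labelled libraries 1, 2 and 5, against 33.3, 33.1 and 33.3 CPM in WT-labelled cells. The lowest KO-labelled library lay close above the WT-labelled ones, whose own spread was small. The log2 fold change was 1.11 with curdlan (SE 0.21, adjusted p = 0.000932) and 0.84 without it (SE 0.21, adjusted p = 0.00642).

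Fgr, a myeloid member that works beside Lyn below integrins and Fc receptors, was the most even of the kinases. With curdlan it read 176, 148 and 166 CPM in KO-labelled cells, against 178, 201 and 227 CPM in WT-labelled cells. In unstimulated cells Fgr read 189, 171 and 192 CPM in KO-labelled cells, against 165, 188 and 183 CPM in WT-labelled cells, and these ranges overlapped. Fgr was lower in KO-labelled cells with curdlan (log2 fold change -0.31, SE 0.1, adjusted p = 0.02) and did not pass without it (0.04, 95% interval -0.17 to 0.25, adjusted p = 0.767). The fall with curdlan lost its call without KO-labelled curdlan library 4 (-0.25, adjusted p = 0.0738), without WT-labelled curdlan library 4 (-0.21, adjusted p = 0.0959) and when only the curdlan groups were fitted (-0.31, adjusted p = 0.0513).

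**Figure D1:**
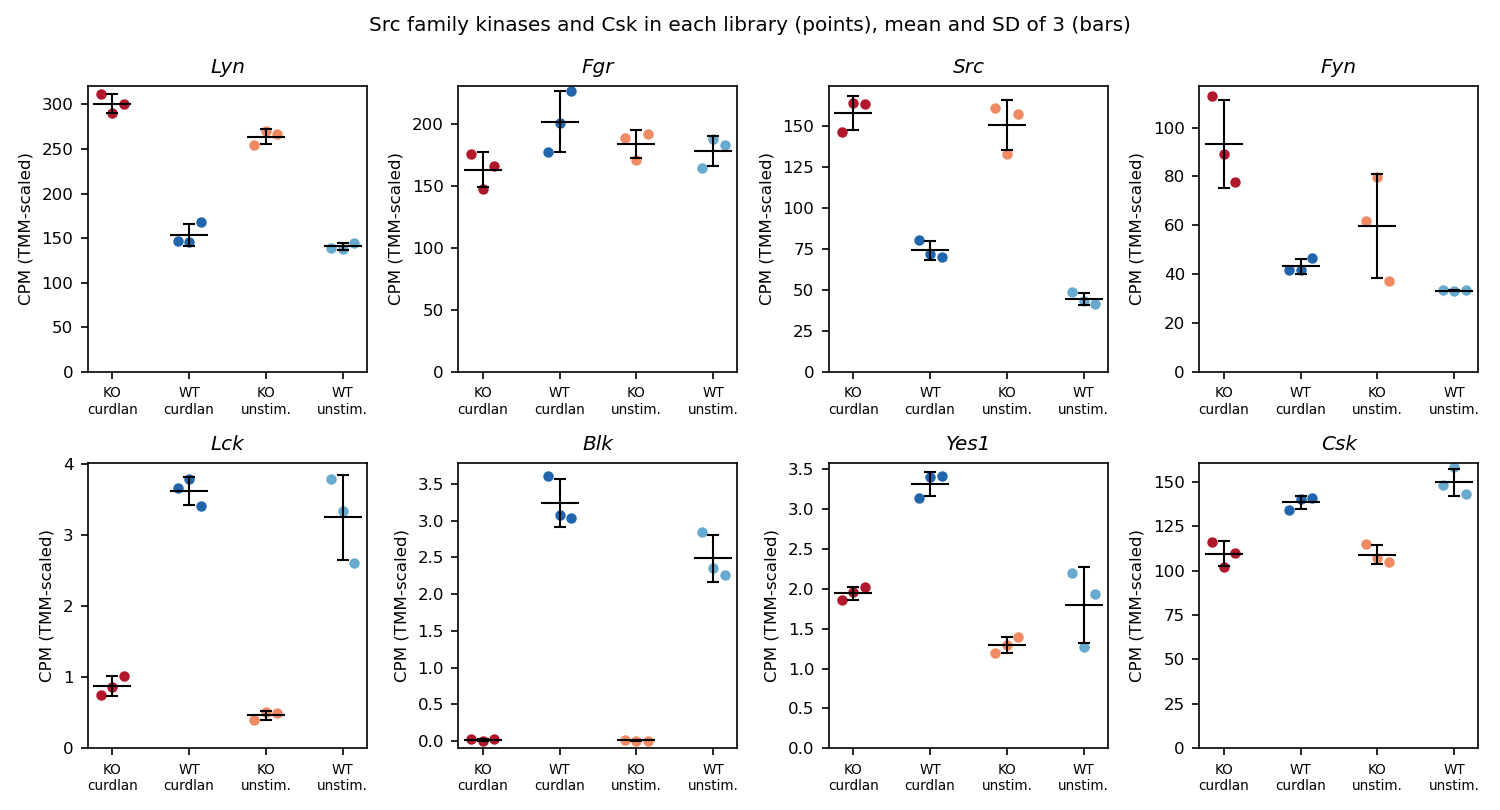
CPM (linear axes, scaled by TMM) of each gene in each library, for KO-labelled and WT-labelled cells with curdlan and then KO-labelled and WT-labelled cells without it; points are libraries and bars the mean and SD of 3. Lyn, Src and Fyn lie higher in KO-labelled cells in both states, Csk, Lck and Blk lie lower, and Blk is at or next to 0 in all 6 KO-labelled libraries.

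Lck, the kinase of the T cell receptor and its CD4 and CD8 coreceptors, was present at a low level. It read 0.745, 0.857 and 1.02 CPM in KO-labelled cells with curdlan, from 34, 31 and 38 counts, against 3.67, 3.8 and 3.41 CPM in WT-labelled cells with curdlan. Without curdlan it read 0.397, 0.506 and 0.494 CPM in KO-labelled cells, from 20, 21 and 27 counts, against 3.8, 3.35 and 2.61 CPM in WT-labelled cells. All KO-labelled libraries were below all WT-labelled ones. Lck was 4.16-fold lower with curdlan (log2 fold change -2.06, SE 0.17, adjusted p = 2.02e-06) and 6.98-fold lower without it (-2.8, SE 0.18, adjusted p = 2.49e-07).

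The T cell markers did not follow Lck. Their summed level, over 15 genes, ran from 19.9 to 22.6 CPM in KO-labelled and from 10.9 to 11.8 CPM in WT-labelled libraries with curdlan, and from 18.6 to 22.3 CPM in KO-labelled and from 8.83 to 10.2 CPM in WT-labelled libraries without it. Of the 8 markers tested 2 rose in KO-labelled cells and 3 fell, where 51.4% of all genes differed with curdlan and 44.4% without it. The costimulatory receptor gene Cd28 was among those that rose, at 8.82 CPM in KO-labelled and 2.17 CPM in WT-labelled cells with curdlan, and 10.8 CPM in KO-labelled and 1.82 CPM in WT-labelled cells without it. Cd3e, a chain of the T cell receptor complex, had 0 counts in the KO-labelled and 4 counts in the WT-labelled curdlan libraries, and 1 count in the KO-labelled and 5 counts in the WT-labelled unstimulated libraries. Trac was at 0 in KO-labelled unstimulated cells. Zap70, the Syk relative that acts with Lck, averaged 0.0325 CPM in KO-labelled and 0.114 CPM in WT-labelled cells with curdlan.

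Blk, a member named for its place in B lymphocytes, was all but missing from KO-labelled libraries. The 3 KO-labelled curdlan libraries held 1, 0 and 1 counts, against 185, 148 and 158 counts in the WT-labelled ones, or 3.24 ± 0.326 CPM (SD, n = 3). The 3 KO-labelled unstimulated libraries held 1, 0 and 0 counts, against 200, 141 and 131 counts in the WT-labelled ones, or 2.49 ± 0.319 CPM (SD, n = 3). Scaled for library size, the WT-labelled sum was 193 times the KO-labelled one with curdlan (95% counting interval 53.1 to 1600) and 368 times without it (65.7 to 14600). The intervals cover counting error only. Because Blk passed the filter on low counts only through the group where it is high, no test between labels is given for it.

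B cell markers were lower too. The summed level of 13 markers ran from 14.5 to 22.6 CPM in KO-labelled and from 67.5 to 82.6 CPM in WT-labelled libraries with curdlan, and from 17 to 23.8 CPM in KO-labelled and from 71.9 to 89.7 CPM in WT-labelled libraries without it. Cd79a, the signalling chain of the B cell receptor that carries an ITAM, averaged 0.146 CPM in KO-labelled and 15 CPM in WT-labelled cells with curdlan, and 0.182 CPM in KO-labelled and 15.7 CPM in WT-labelled cells without it. Pou2af1, a B cell coactivator of transcription, averaged 0.0274 CPM in KO-labelled and 11.6 CPM in WT-labelled cells with curdlan. Of the 13 markers 10 were tested, and 9 were lower and 0 higher in KO-labelled libraries, with and without curdlan, but several of them, like Blk, passed the filter only through the WT-labelled libraries, so this count is no support. Most of the sum that was left in KO-labelled cells came from Cd22, an ITIM receptor, at 15.5 CPM in KO-labelled and 13.2 CPM in WT-labelled cells with curdlan; it did not pass the test without curdlan (log2 fold change 0.23, adjusted p = 0.364). Rag1 was at 0 in KO-labelled curdlan libraries and Igll1 and Ms4a1 in KO-labelled unstimulated ones. The part of B lineage RNA in the Blk and Lck values was not tested.

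**Figure D2:**
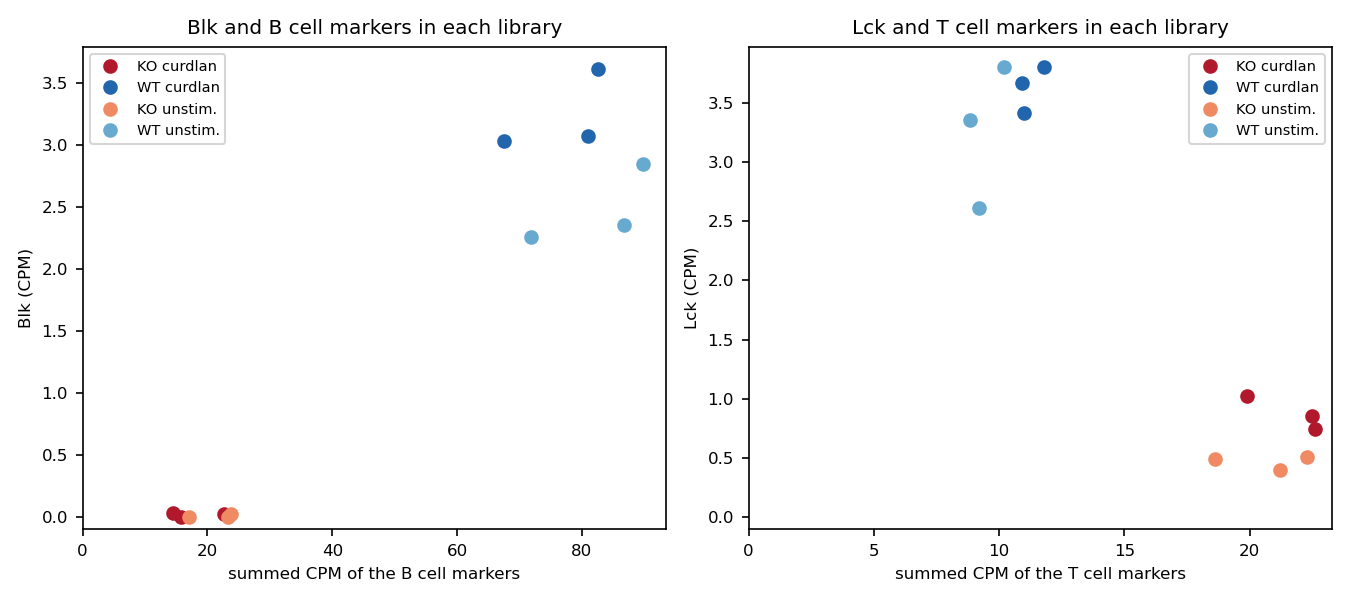
Blk against the summed B cell markers (left) and Lck against the summed T cell markers (right), both in CPM on linear axes, one point a library, coloured by group. The KO-labelled libraries form the low corner of the Blk panel, with marker sums of 14.5 to 23.8 CPM; in the Lck panel they hold the higher marker sums, 18.6 to 22.6 CPM, and the lower Lck.

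Yes1, a widely expressed relative of Src, was rare. It read 1.86, 1.96 and 2.02 CPM in KO-labelled cells with curdlan, against 3.14, 3.4 and 3.41 CPM in WT-labelled cells with curdlan. Without curdlan it read 1.19, 1.3 and 1.39 CPM in KO-labelled cells, against 2.2, 1.27 and 1.93 CPM in WT-labelled cells, so that WT-labelled library 2 lay within the KO-labelled range. Yes1 was lower in KO-labelled cells with curdlan (log2 fold change -0.77, SE 0.17, adjusted p = 0.00241), and the fall without curdlan only just passed (-0.48, SE 0.18, adjusted p = 0.0446). Leaving out any library but WT-labelled unstimulated library 2 ended the unstimulated call, with adjusted p from 0.0506 to 0.199, as did DESeq2 (adjusted p = 0.0565) and limma-voom (adjusted p = 0.0746). A fit of the unstimulated groups alone (adjusted p = 0.0984), the replicate number as a block (adjusted p = 0.0665) and no filter on low counts (adjusted p = 0.0508) ended it too, and without WT-labelled unstimulated library 1 the change was -0.3.

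Csk, the brake on the family, was modestly lower in KO-labelled cells. It read 116, 102 and 110 CPM in KO-labelled cells with curdlan, against 134, 140 and 141 CPM in WT-labelled cells with curdlan. In unstimulated cells Csk read 115, 107 and 105 CPM in KO-labelled cells, against 148, 158 and 143 CPM in WT-labelled cells. The groups did not overlap in either state. The log2 fold change was -0.34 with curdlan (SE 0.07, adjusted p = 0.0015) and -0.46 without it (SE 0.07, adjusted p = 0.000183).

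Counted together without Blk, 7 of 7 members differed between KO-labelled and WT-labelled cells with curdlan, 3 higher and 4 lower, where 51.4% of all genes tested did so (24.7% higher and 26.8% lower). Without curdlan 6 of 7 differed, 3 higher and 3 lower, where 44.4% of all genes did (21.1% higher and 23.3% lower). The libraries of the labels did not overlap for 7 of 7 members with curdlan, as for 56.9% of all genes, and for 5 of 7 without it, as for 56.1% of all genes. The median log2 fold change of the 7 was -0.31 with curdlan and 0.04 without it, beside 0.01 and -0.01 over all genes. In both states Lyn, Src and Fyn were higher, and Lck, Yes1 and Csk were lower. The authors' deposited table of KO over WT with curdlan gives log2 fold changes of 0.96 for Lyn, 1.08 for Src, 1.08 for Fyn, -0.31 for Fgr (adjusted p = 0.0457, DESeq2), -1.96 for Lck, -0.75 for Yes1 and -0.34 for Csk.

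**Figure D3:**
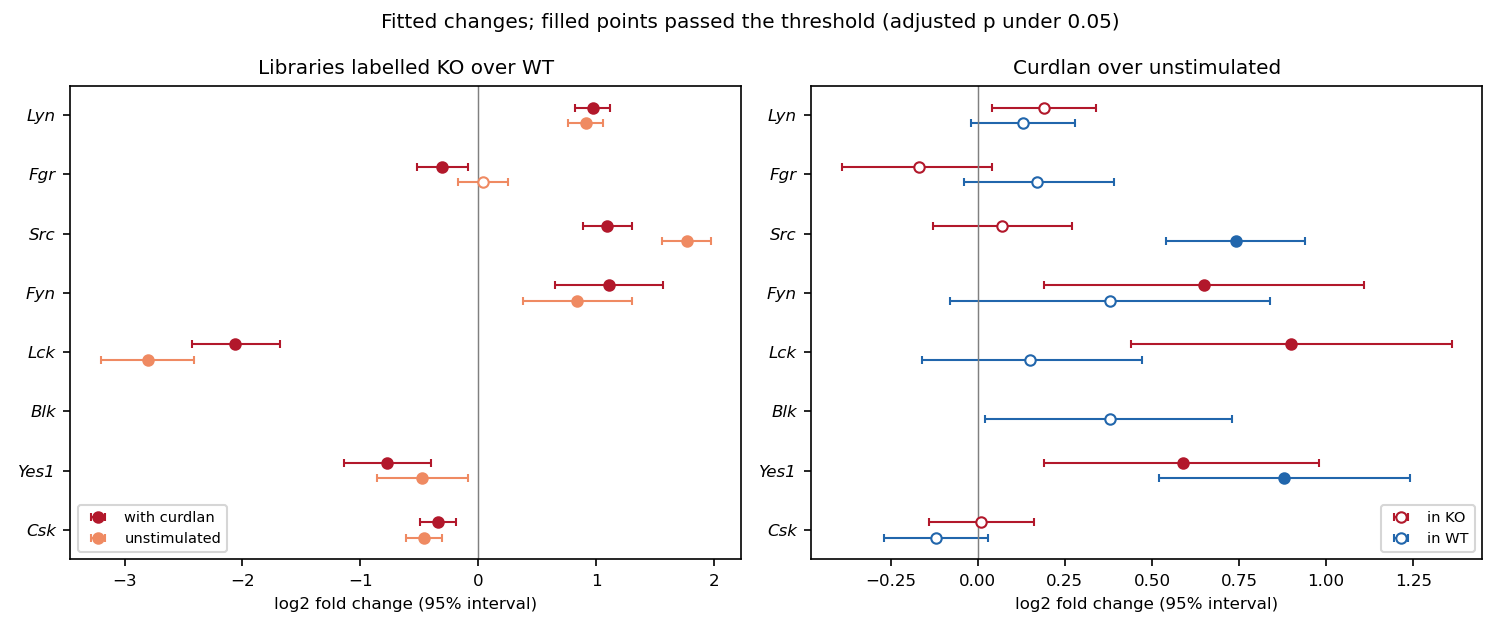
Log2 fold changes with 95% intervals from the fit of 12 libraries: KO-labelled over WT-labelled cells with and without curdlan (left), and curdlan over unstimulated in KO-labelled and WT-labelled cells (right); filled points passed the threshold. The curdlan change of Src was 0.07 in KO-labelled and 0.74 in WT-labelled cells. Blk is drawn only for curdlan in WT-labelled cells, since its KO-labelled libraries hold 0 or 1 counts.

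Levels of different genes were compared per kilobase of joined exons, as CPM per kb. In KO-labelled cells with curdlan the order was Lyn at 73.9, Fgr at 42.2, Src at 36.1, Csk at 29.3 and Fyn at 21.4 CPM per kb, and in WT-labelled cells with curdlan Fgr at 52.2, Lyn at 37.7, Csk at 37, Src at 16.9 and Fyn at 9.9 CPM per kb. Lyn and Csk overlapped in range in the WT-labelled curdlan libraries and the other neighbours among these 5 did not. In KO-labelled unstimulated cells Lyn stood at 64.7, Fgr at 47.6, Src at 34.4, Csk at 29.1 and Fyn at 13.7 CPM per kb, with Src and Csk overlapping, and in WT-labelled unstimulated cells Fgr at 46.3, Csk at 40.1, Lyn at 34.5, Src at 10.1 and Fyn at 7.62 CPM per kb. By this length Lyn headed both KO-labelled groups and Fgr both WT-labelled groups. Group means of Lck, Blk and Yes1 lay between 0.00246 and 1.24 CPM per kb. The ranges of Lck and Yes1 overlapped in both KO-labelled groups and those of Lck and Blk in both WT-labelled groups. The order depends on the length used. With the longest transcript in place of the joined exons, Csk came above Src in KO-labelled unstimulated cells (39.6 and 38.5 CPM per kb), above Lyn in WT-labelled cells with curdlan (50.3 and 44.4 CPM per kb) and above Fgr in WT-labelled unstimulated cells (54.5 and 53.2 CPM per kb), and Yes1 came above Lck in KO-labelled cells with curdlan (0.425 and 0.4 CPM per kb).

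The makeup of the family differed accordingly. Lyn was 42.4% ± 0.35 of the summed CPM per kb of the 7 kinases in KO-labelled and 31.5% ± 0.629 in WT-labelled cells with curdlan, and 40.3% ± 1.71 in KO-labelled and 34.3% ± 0.967 in WT-labelled cells without it (SD, n = 3 each). The share of Fgr was 24.2% ± 1.27 in KO-labelled and 43.5% ± 2.48 in WT-labelled cells with curdlan, and 29.6% ± 1.69 in KO-labelled and 45.9% ± 2.14 in WT-labelled cells without it. No range of Lyn or Fgr overlapped between labels. The share of Src was 20.8% ± 2.12 in KO-labelled and 14.2% ± 1.96 in WT-labelled cells with curdlan, and 21.4% ± 1.98 in KO-labelled and 10.1% ± 1.08 in WT-labelled cells without it.

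The ratio of the 7 kinases to Csk, in CPM per kb, does not depend on how libraries are scaled. It was 5.96 ± 0.177 in KO-labelled and 3.23 ± 0.174 in WT-labelled cells with curdlan, and 5.53 ± 0.227 in KO-labelled and 2.52 ± 0.135 in WT-labelled cells without it (SD, n = 3 each). The lowest KO-labelled library stood above the highest WT-labelled one in both states. By kinase, the ratio of Src to Csk was 1.24 ± 0.153 in KO-labelled and 0.458 ± 0.046 in WT-labelled cells with curdlan, and 1.18 ± 0.107 in KO-labelled and 0.253 ± 0.024 in WT-labelled cells without it. The ratio of Lyn to Csk was 2.53 ± 0.0785 in KO-labelled and 1.02 ± 0.0672 in WT-labelled cells with curdlan. The ratio of Fgr to Csk was 1.44 ± 0.0341 in KO-labelled and 1.41 ± 0.141 in WT-labelled cells with curdlan, with overlapping ranges, and 1.64 ± 0.116 in KO-labelled and 1.16 ± 0.0827 in WT-labelled cells without it, with ranges apart. These ratios are of transcripts and describe no kinase activity.

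**Figure D4:**
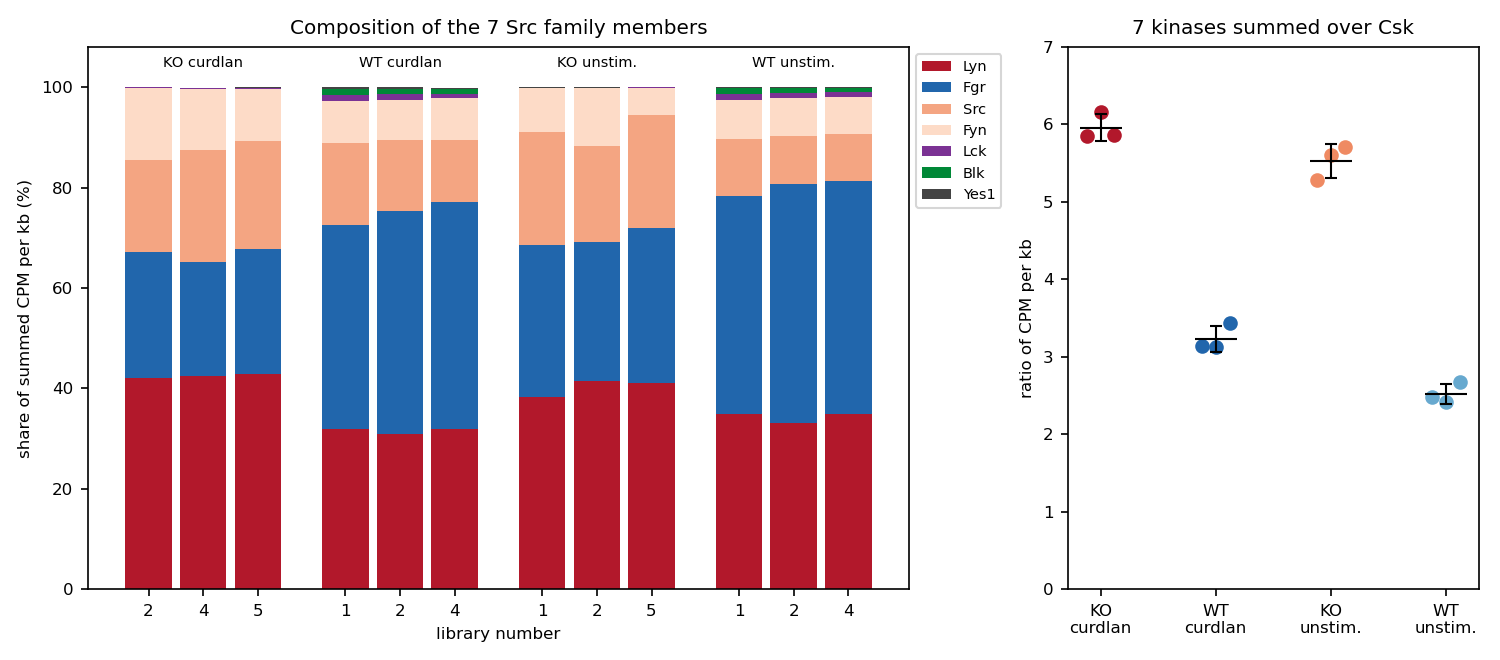
Share of each kinase in the summed CPM per kb of the 7 members, one stacked bar a library (left), and the 7 members' sum over Csk, with the mean and SD of 3 (right; linear axis from 0). Lyn takes a larger and Fgr a smaller share in KO-labelled libraries, and the ratio to Csk is 5.28 to 6.16 in KO-labelled and 2.41 to 3.43 in WT-labelled libraries.

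Libraries with curdlan were set against unstimulated ones within each label. In KO-labelled cells, without Blk, 3 of 7 rose and 0 fell (Fyn, Lck and Yes1), where 28.6% of all genes passed (14% higher and 14.6% lower). In WT-labelled cells 2 of 8 rose and 0 fell (Src and Yes1), where 19.8% of all genes passed (11.4% higher and 8.4% lower). The median of the 7 in KO-labelled cells was 0.19 and that of all genes 0. The median of the 8 in WT-labelled cells was 0.28 and that of all genes -0.03. The libraries of the states did not overlap for 3 of 7 members in KO-labelled cells (38.1% of all genes) and for 6 of 8 in WT-labelled cells (44.5% of all genes). The 3 of 7 that passed in KO-labelled and 2 of 8 (25%) in WT-labelled cells are too few to be set apart from these backgrounds. The 6 of 8 without overlap in WT-labelled cells lay above the share of all genes, and the members were not tested as a set.

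Src rose 1.67-fold in WT-labelled cells (log2 fold change 0.74, SE 0.09, adjusted p = 0.000179) and did not pass in KO-labelled cells (0.07, 95% interval -0.13 to 0.27, adjusted p = 0.622). Within libraries of the same number, the log2 difference was 0.72, 0.74 and 0.76 in WT-labelled libraries 1, 2 and 4, and 0.13 and 0.05 in KO-labelled libraries 2 and 5. The difference between the effects itself, KO minus WT, was -0.67 (SE 0.13, 95% interval -0.96 to -0.39, adjusted p = 0.0154). Without Blk, Src was the 1 member of 7 with such a difference, where 5.21% of all genes had one (1.61% higher and 3.6% lower). With curdlan, Src in WT-labelled cells averaged 74 ± 5.51 CPM, still below KO-labelled unstimulated cells at 150 ± 14.9 CPM (SD, n = 3 each).

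Yes1 rose under both labels, with log2 changes of 0.59 in KO-labelled cells (SE 0.18, adjusted p = 0.0313) and 0.88 in WT-labelled cells (SE 0.16, adjusted p = 0.00271). The rise in KO-labelled cells lost its call with the replicate number as a block (0.53, adjusted p = 0.104) and without KO-labelled curdlan library 4 (adjusted p = 0.0754) or 5 (0.0814) or KO-labelled unstimulated library 1 (0.11) or 2 (0.0659). The difference of the effects was -0.29 (95% interval -0.83 to 0.24, adjusted p = 0.493).

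Lck rose 1.87-fold in KO-labelled cells (log2 fold change 0.9, SE 0.21, adjusted p = 0.00778), from counts of 20 to 38 a library, and did not pass in WT-labelled cells (0.15, 95% interval -0.16 to 0.47, adjusted p = 0.5). The difference of the effects, 0.75, did not pass (95% interval 0.19 to 1.3, adjusted p = 0.0986). Even with curdlan, Lck in KO-labelled cells averaged 0.875 CPM, below the 3.25 CPM of WT-labelled unstimulated cells.

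Fyn rose in KO-labelled cells (log2 fold change 0.65, SE 0.21, adjusted p = 0.037). In WT-labelled cells its value was 0.38 (SE 0.21, adjusted p = 0.236), and the difference of 0.27 did not pass (95% interval -0.38 to 0.92). In KO-labelled cells the libraries with curdlan and without it overlapped. That call was lost when any of 8 libraries was left out, with adjusted p from 0.05 to 0.12: KO-labelled curdlan library 2 or 4, KO-labelled unstimulated library 1 or 5, WT-labelled curdlan library 2, and WT-labelled unstimulated library 1, 2 or 4. The change was 0.4 without KO-labelled unstimulated library 5, and the call was also lost when only the KO-labelled groups were fitted (adjusted p = 0.123). In WT-labelled cells all libraries with curdlan were above all libraries without it. The rise there passed in 2 of 21 alternatives, among them the replicate number as a block (0.38, adjusted p = 0.00463).

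The other members did not pass in either label. Lyn had a log2 fold change of 0.19 in KO-labelled cells (SE 0.07, 95% interval 0.04 to 0.34, adjusted p = 0.0541) and of 0.13 in WT-labelled cells (95% interval -0.02 to 0.28, adjusted p = 0.22). The value in KO-labelled cells passed with the replicate number as a block (adjusted p = 0.0469), with DESeq2 (adjusted p = 0.0292) and without WT-labelled curdlan library 4 (adjusted p = 0.0367). Fgr had -0.17 in KO-labelled cells (95% interval -0.39 to 0.04) and 0.17 in WT-labelled cells (95% interval -0.04 to 0.39). Csk had 0.01 in KO-labelled cells (95% interval -0.14 to 0.16) and -0.12 in WT-labelled cells (95% interval -0.27 to 0.03). With library size alone in place of TMM, which moves the median of all genes down, Fgr in KO-labelled cells (-0.37, adjusted p = 0.00816) and Csk in KO-labelled (-0.19, adjusted p = 0.0437) and WT-labelled cells (-0.25, adjusted p = 0.0157) passed. Blk had 0.38 in WT-labelled cells (SE 0.16, adjusted p = 0.131; adjusted p = 0.0166 with the replicate number as a block), and its 2 counts with curdlan and 1 count without it give no fold in KO-labelled cells.

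The genes most like each member over the 12 libraries were taken by the smallest root-mean-square difference of centred log2 CPM, among 9714 genes, for the 6 members whose group means spanned at least 1 on the log2 scale. For Lyn these were Gramd1a (0.089), Vasp (0.096) and Map3k7 (0.109). For Src they were Slc7a8 (0.109), Alas1 (0.153) and Orai2 (0.166), and for Fyn Bach1 (0.169), Parp12 (0.175) and Bcar3 (0.19). For Lck they were Ppm1j (0.296), Ocstamp (0.329) and Flt1 (0.375). For Blk they were Uchl1 (0.484), the immunoglobulin heavy chain gene Ighm (0.502) and Scd1 (1.076). These were the least close matches of the 6 members. In KO-labelled libraries the log2 CPM of Blk rests on 0 or 1 counts, so its matches are no support. For Yes1 they were Bag2 (0.213), Ankrd37 (0.217) and Mtmr7 (0.223). The spans of Fgr (0.3) and Csk (0.46) were too small for such a match.

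Genes around the members were taken from lists drawn up by role, and up to 4 of each list are named by the size of their change. Matk, which like Csk phosphorylates the tail tyrosine of the family, was lower in KO-labelled cells with curdlan (log2 fold change -1.01, SE 0.22, adjusted p = 0.00226) and without it (-1.22, SE 0.22, adjusted p = 0.000651). Srms, a relative of the family, was lower in KO-labelled cells without curdlan (-1.06, SE 0.34, adjusted p = 0.0237), at a low level of 0.327 CPM in KO-labelled and 0.69 CPM in WT-labelled cells.

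Of 14 tested genes for Csk docking proteins and the phosphatases that act on the family, 5 were higher and 3 lower in KO-labelled cells with curdlan, and 6 higher and 1 lower without it, with median log2 fold changes of -0.06 and 0.13. Over all genes the medians were 0.01 with curdlan and -0.01 without it, and 51.4% of genes passed with curdlan and 44.4% without it. These medians and shares stand beside every list here. The share of this list that passed, 57.1% with curdlan and 50% without it, lay near that of all genes. Ptprj, which encodes the receptor phosphatase CD148 that removes the tail phosphate in myeloid cells, was higher (log2 fold change 0.78 with curdlan and 1.02 without it). Ptpn22, a phosphatase that binds Csk and acts on the activating tyrosine, was lower (-0.47 with curdlan and -1.15 without it) and rose with curdlan by 1.1 in KO-labelled and by 0.42 in WT-labelled cells. Ptpn18 and Ptpn12 belong to the same family of phosphatases as Ptpn22. Ptpn18 was higher in KO-labelled cells (1.36 with curdlan and 0.86 without it). Ptpn12 rose with curdlan by 0.9 in KO-labelled and by 0.58 in WT-labelled cells. With curdlan against unstimulated, 5 of the 14 rose and 3 fell in KO-labelled cells, and 6 rose and 0 fell in WT-labelled cells, with medians of 0.12 and 0.17. The medians of all genes for curdlan were 0 in KO-labelled and -0.03 in WT-labelled cells. The shares of all genes that passed for curdlan were 28.6% in KO-labelled and 19.8% in WT-labelled cells.

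Of 20 tested adaptors, ubiquitin ligases and binding partners, 9 were higher and 4 lower in KO-labelled cells with curdlan, and 8 higher and 5 lower without it, with medians of 0.2 and 0.18. The share that passed was 65% in each state. Socs1 and Socs3 encode feedback inhibitors of cytokine receptors. Socs1 was higher by 2.13 with curdlan and 2.05 without it on the log2 scale, and Socs3 by 1.03 with curdlan and 1.97 without it. Fyb, an adaptor that Fyn phosphorylates, was higher by 0.99 with curdlan and 1.6 without it. Sla2, a Src-like adaptor, was higher with curdlan (1.35, SE 0.23, adjusted p = 0.000462), at a low level of 0.747 CPM in KO-labelled and 0.289 CPM in WT-labelled cells. With curdlan against unstimulated, 5 of the 20 rose and 1 fell in KO-labelled cells, and 4 rose and 3 fell in WT-labelled cells, with medians of 0 and 0.02.

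Of 25 tested ITAM receptors, adapters and proximal kinases, 12 were higher and 4 lower in KO-labelled cells with curdlan, and 13 higher and 4 lower without it, with medians of 0.35 and 0.23. The share that passed was 64% with curdlan and 68% without it. The Fc receptor gene Fcgr4 was higher by 1.99 with curdlan and 1.83 without it, and Fcgr1 by 1.22 and 0.53. Clec4e, which encodes the lectin receptor Mincle, was higher by 0.71 with curdlan and 1.6 without it. With curdlan against unstimulated, 8 of the 25 rose and 4 fell in KO-labelled cells, and 4 rose and 3 fell in WT-labelled cells, with medians of -0.02 and -0.03.

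The list of ITIM receptors and inhibitory phosphatases, many of them targets of Lyn, also holds related receptors without a known ITIM, such as Siglec1. Of its 19 tested genes 12 were higher and 1 lower in KO-labelled cells with curdlan, and 12 higher and 2 lower without it, with medians of 0.52 and 0.39. The share that passed was 68.4% with curdlan and 73.7% without it. Clec4a1, from the family of lectins that holds ITIM receptors, was higher by 2.93 with curdlan and 3.03 without it. The sialic acid receptor genes were higher too, Siglecg by 1.3 with curdlan and 0.56 without it, Siglece by 1.03 and 1.29, and Siglec1 by 0.85 and 1.19. With curdlan against unstimulated, 3 of the 19 rose and 2 fell in KO-labelled cells, and 2 rose and 1 fell in WT-labelled cells, with medians of -0.08 and -0.06.

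Of 22 tested integrin subunits, substrates and focal adhesion genes, 5 were higher and 6 lower in KO-labelled cells with curdlan, and 7 higher and 4 lower without it, with medians of -0.05 and 0.12. The share that passed, 50% in each state, lay near that of all genes. Ptk2, which encodes the focal adhesion kinase that Src binds, was lower (log2 fold change -1 with curdlan and -1.11 without it). Bcar1, the Src substrate p130Cas, was lower with curdlan (-1.14, SE 0.2, adjusted p = 0.000564) and higher without it (0.64, SE 0.22, adjusted p = 0.0333), and it rose with curdlan by 2.08 in WT-labelled cells (SE 0.21, adjusted p = 3.22e-05). Its level was low, at 1.48 CPM in KO-labelled and 3.27 CPM in WT-labelled cells with curdlan, and 1.2 and 0.775 CPM without it. Nedd9, a relative of Bcar1, rose with curdlan by 1.23 in KO-labelled and by 0.8 in WT-labelled cells, and the integrin gene Itgav by 1.24 in KO-labelled and 0.87 in WT-labelled cells. With curdlan against unstimulated, 5 of the 22 rose and 2 fell in KO-labelled cells, and 7 rose and 0 fell in WT-labelled cells, with medians of -0.03 and 0.17.

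In GENCODE M21 (GRCm38) all 8 are protein-coding genes. Lyn lies at chr4:3678115-3813122 on the plus strand, Fgr at chr4:132974095-133001910 (plus), Lck at chr4:129548344-129573641 (minus), Src at chr2:157418444-157471862 (plus), Fyn at chr10:39368855-39565381 (plus), Blk at chr14:63372836-63417037 (minus), Yes1 at chr5:32611171-32687057 (plus) and Csk at chr9:57626646-57653631 (minus). The kit does not mark strand, so reads of overlapping exons cannot be assigned by it. Such overlaps cover 6.09% of the exon bases of Lyn (the antisense lincRNA Gm26857), 8.46% of Yes1 (the antisense gene Gm10461) and 0.85% of Lck (Mir8119).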

How the data were processed

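Total RNA from 12 BMDC libraries was prepared with a kit that does not mark strand, per the labels' protocols. The deposited values are whole-number counts of reads per gene, with no scaling. The submitters' processing notes name TopHat2 (version written 2.4.2a), featureCounts 1.4.6, DESeq2 1.8.2, SAMtools 1.2 and FastQC 0.11.1. Not given in the sources used here are the genome build, the annotation and how multiply aligned reads were counted. Comparison tables with log2 fold changes and p-values were deposited too, per the file headers, and their 24 other columns of values per library were not used. Members and lists were chosen with earlier results of these data known.

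From the counts, 18981 genes passed filterByExpr by group. Changes were fitted with edgeR 4.0.16 (R 4.3.3) on TMM-scaled counts, in 1 quasi-likelihood fit of all 12 libraries with 4 group means, two-sided, with Benjamini-Hochberg adjustment over all genes tested and a threshold of 0.05. CPM use effective library sizes, and the log2 CPM behind likeness has a prior count of 2. SE is the log2 fold change over the root of F. Every member was named; from each list up to 4 genes that passed were named by the size of their change in any comparison of label or curdlan. Results for a few genes of the lists are not reported here. Alternatives were other scalings, other filters, DESeq2 1.42.0, limma-voom (limma 3.58.1), fits of single contrasts, leaving out each library, a replicate block and another gene length. Nothing says that libraries of a group came from separate animals, so the p-values cover library-to-library spread alone, which may be technical. No pair of replicates agreed within counting noise (chi-square per degree of freedom 9.15 to 77.1).

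Libraries of the same number deviated together between states of a label (r = 0.395, 0.239 and 0.129 in WT, 0.287 and 0.557 in KO, across genes). Pairs of unlike number ran from -0.47 (KO curdlan library 5 with unstimulated library 2) to 0.246 (KO curdlan library 4 with unstimulated library 2). The numbers of the library names may thus pair curdlan with unstimulated libraries. The main fit used no such pairing, and the replicate block is given as an alternative. In the authors' deposited table of KO over WT with curdlan, the WT columns are numbered 4, 1 and 2 where the count table has 1, 2 and 4 for the same values. The numbers of the count table were used.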

Additional observations from a re-analysis of the deposited data

Results flagged for a closer look

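The curdlan effect on Src differed between labels: it was 0.07 in KO-labelled and 0.74 in WT-labelled cells on the log2 scale, a difference of -0.67 (SE 0.13, adjusted p = 0.0154, edgeR), which passed the test of the difference itself. In 20 alternatives the difference ran from -0.75 to -0.61, with an adjusted p of at most 0.0464.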

How the results depend on the processing

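Of 831 member values under 21 alternative settings, Blk included, 787 kept their side of the threshold (and their direction, where called), 35 lost the call, 8 gained one and 1 turned round. All values of Blk between labels, for curdlan in KO-labelled cells and for the difference kept their side. With 0 or 1 counts in each KO-labelled library they could hardly do otherwise and are no sign of stability. The value that turned round was the curdlan effect on Csk in KO-labelled cells, at -0.19 (adjusted p = 0.0437) with library size alone in place of TMM. That setting moved the median of all genes by -0.198 for curdlan in KO-labelled cells, -0.134 for curdlan in WT-labelled cells, -0.245 for label with curdlan and -0.181 for label without it. The share of higher genes among those called became 17.9% (49% with TMM), 25.1% (57.6%), 23.7% (48%) and 26.4% (47.5%), and for the difference of curdlan effects 15.7% (30.8%). Upper-quartile scaling gave 46.3% for curdlan in WT-labelled cells and 42% for the difference. The directions of Lyn, Src, Fyn, Lck, Yes1 and Csk between labels held with library size alone, which ended the curdlan calls in KO-labelled cells of Fyn (0.45, adjusted p = 0.113) and Yes1 (0.39, adjusted p = 0.126). With 1 library left out, members called ran from 1 (without KO-labelled curdlan library 4 or unstimulated library 1) to 4 for curdlan in KO-labelled cells, stayed at 2 for curdlan in WT-labelled cells, ran from 6 to 7 for label without curdlan and from 7 to 8 with it (Blk included), and stayed at 1 for the difference. The replicate block raised the members called for curdlan in WT-labelled cells to 4. Between labels, same-numbered libraries did not deviate together (r from -0.151 to 0.082), and with the block Yes1 without curdlan was -0.49 (adjusted p = 0.0665). Apart from this value and those beside the results, the block changed no member call. All genes called for the difference of curdlan effects numbered 989, against 2251 with DESeq2, 2671 with the block and 366 (without WT-labelled curdlan library 2) to 2837 (without KO-labelled curdlan library 2) with 1 library left out. For curdlan in KO-labelled cells 5425 genes were called, against 3142 with its groups alone and 3490 without KO-labelled unstimulated library 1, and in WT-labelled cells 3759, against 6123 with library size alone, 7276 with the block and 2170 without WT-labelled curdlan library 4. The causes were not tested. Depth limits Blk, Lck and Yes1, at 0 to 266 counts a library.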

Other observations

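The authors' deposited table named an interaction gives log2 fold changes of 0.92 for Lyn, 1.78 for Src, -2.8 for Lck and -0.45 for Csk. Over 18981 genes its values differ by a median of 0.011 from KO against WT without curdlan and by a median of 0.473 from the difference of curdlan effects. For Src that difference was -0.67.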
